A study of Mus musculus with 12 samples.

Results

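Potassium channel genes were followed across the libraries as the 96 of 55487 genes whose symbol begins with Kcn. Pseudogenes, symbols ending in os and Kcnj11, the pore of the ATP-sensitive channel, were set aside by the same rule. Of the 96 genes, 93 encode channel subunits or their regulators. They fall into 27 voltage-gated pore subunits (Kcna, Kcnb, Kcnc, Kcnd, Kcnf, Kcng, Kcns and Kcnv), 5 Kv7 subunits (Kcnq), 8 EAG, ERG and ELK subunits (Kcnh), 8 calcium- or sodium-activated subunits, 14 inward rectifiers (Kcnj), 14 two-pore subunits (Kcnk) and 17 auxiliary subunits. The other 3, Kcnq1ot1, Kcnmb4os1 and Kcnmb4os2, are RNAs named after a channel gene.

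A potassium channel lets potassium ions leave the cell and so draws the membrane back towards its resting voltage. In beta cells, a rise in glucose closes ATP-sensitive potassium channels, the membrane depolarises, calcium enters and insulin is secreted. Voltage-gated and calcium-activated potassium channels then end each action potential, two-pore channels pass a leak current near rest, and auxiliary subunits set the traffic and gating of the pores.

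Min6 is an insulin-secreting line from a mouse insulinoma, so each group is a model of that line and not of islets. Control cells spent 48 h in the solvent DMSO, and the others spent the same time in 1 of 3 treatments. FoxOi cells received AS1842856, an inhibitor of the transcription factor FoxO1, at 1 µM, Loperamide cells received the opioid receptor agonist loperamide at 5 µM, and FoxOi_Loperamide cells received both at these doses. Each group has 3 libraries. The labels do not say whether these came from separate cultures, so the p-values measure the spread between these libraries, which may be technical.

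Total counts per library ran from 10640485 to 19499216, of which the 96 genes took 0.0688% to 0.120%. Levels of 1 gene across groups are given as CPM (counts scaled to library size with edgeR's TMM), and levels compared between genes as the deposited FPKM, which are scaled to gene length. All 9 beta cell markers examined had counts in every library. Their summed level was 61279 to 84873 CPM in DMSO, 34798 to 39594 in FoxOi, 63008 to 63434 in Loperamide and 27009 to 31798 in FoxOi_Loperamide. Most of this was Ins2, with group means of 46622, 18132, 43392 and 19009 CPM in that order, and Iapp, with 18254, 14665, 13322 and 6236. The 9 beta cell markers did not move together. Means of Mafa were 811, 86.5, 761 and 171 CPM, those of G6pc2 1665, 1705, 1813 and 1620, and those of Neurod1 225, 167, 306 and 226. Of 4 alpha cell markers, 3 had counts in all libraries, with sums of 2614 to 3834 CPM, 1816 to 2445, 394 to 722 and 865 to 1187 in the same order. These markers did not move together. Group means of Ttr were 2520, 1092, 405 and 429 CPM in that order, and those of Gcg 717, 1084, 121 and 586. Means of Irx2 lay between 8.85 and 12.8 CPM. The 3 neuron markers summed to 284 to 301, 213 to 235, 255 to 263 and 181 to 191 CPM. Most of this was Snap25, with group means of 273, 200, 235 and 161 CPM. Means of Syt1 were 20.2, 26.4, 23.5 and 24.0 CPM, and those of Rbfox3 were 1.08 or less. Of the delta cell markers, Sst had counts in all 12 libraries and Hhex 1 count in all, with sums of 36.3 to 75.1, 51.3 to 142, 6.47 to 15.9 and 8.31 to 17.1 CPM. Ppy of pancreatic polypeptide cells had counts in all 12, at 2.38 to 18.8 CPM. The 3 leukocyte markers summed to 3.89 to 5.24, 20.03 to 21.7, 3.73 to 4.31 and 7.06 to 7.62 CPM, with Ptprc at 5 counts in all and Cd68 highest in FoxOi. The 4 fibroblast markers summed to 1.06 to 4.24 CPM over all libraries, with Col3a1 at 0, and the 2 endothelial markers to 0.0610 to 1.49, with Cdh5 at 2 counts. The part these shifts have in the results on channel genes was not tested. In bulk RNA, fewer cells of a kind and less RNA per cell cannot be told apart.

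The pore of every potassium channel carries a short selectivity filter, the stretch that holds potassium ions in line and keeps sodium out. It was sought in the longest annotated coding sequence of each gene (GENCODE M21, GRCm38) as 5 codons in a row: threonine or serine, any residue, glycine, then tyrosine, phenylalanine or leucine, then glycine. All 76 pore subunits hold it, 0 of the 17 auxiliary subunits do, and 5.37% of 21817 coding sequences do. The 14 two-pore subunits each hold 2 such stretches, 1 for each pore loop. Kcnh2 and Kcna6 also hold a second match. The stretches below belong to the pores whose levels are described most fully. The 15 bases of the filter are in capitals, read 5′ to 3′ on the coding strand, with 12 bases on either side.
Kcnk16, from codon 108: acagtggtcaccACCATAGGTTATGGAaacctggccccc
Kcnk9, from codon 93: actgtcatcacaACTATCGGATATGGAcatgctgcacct
Kcnk9, from codon 199: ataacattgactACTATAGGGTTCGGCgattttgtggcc
Kcnh6, from codon 476: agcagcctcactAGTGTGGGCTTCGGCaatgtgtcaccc
Kcnh2, from codon 626: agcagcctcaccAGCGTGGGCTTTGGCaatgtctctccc
Kcnma1, from codon 352: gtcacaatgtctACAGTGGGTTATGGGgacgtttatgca
The fourth codon is tyrosine in the first filter of both two-pore subunits and in Kcnma1. It is phenylalanine in the second filter of Kcnk9 and in Kcnh6 and Kcnh2, whose first filter codon is serine.

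Of the 96 genes, 85 had at least 1 count in the 12 libraries and 11 had none. Those without a count were Kcna3, Kcna10, Kcnd3, Kcnj5, Kcnj8, Kcnj15, Kcnj16, Kcnk15, Kcnk18, Kcnmb3 and Kcnmb4os1. Another 23 genes had 1 to 10 counts in all, and 14 had more but were too low for the test. The remaining 48 were tested. At least 1 FPKM was reached in every library of a group by 26 genes, and in all 12 libraries by 17.

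Kcnk16, a two-pore subunit known from islet beta cells as TALK-1, was the most abundant of these genes per length in DMSO, at 58.6 ± 10.6 FPKM (SD, n = 3). Its 3 DMSO libraries, at 68.2, 60.4 and 47.2 FPKM, lay above those of every other channel gene. Next came Kcnip1, a calcium-binding partner of Kv4 pores, at 26.0 ± 1.05 FPKM, Kcnk9 (TASK-3) at 23.2 ± 1.73, Kcnh6 (ERG2) at 22.4 ± 3.01 and Kcnk1 (TWIK-1) at 21.9 ± 0.445. Neighbours within this group of 4 overlapped between libraries, so their order was not resolved. These 5 genes made up 58.8% of the summed FPKM of all 96 in DMSO, 50.2% in FoxOi, 48.3% in Loperamide and 38.0% in FoxOi_Loperamide.

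**Figure D1:**
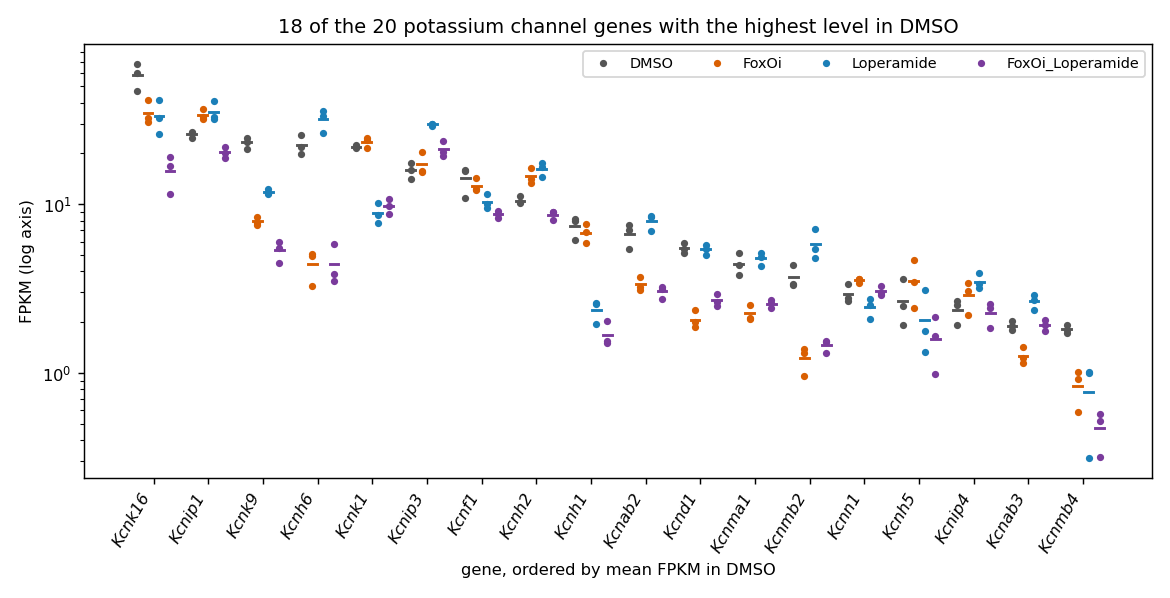
FPKM (log axis) of 18 of the 20 potassium channel genes with the highest mean in DMSO, with 1 point per library and a line at each group mean. Kcnk16 stands highest in DMSO at 58.6 FPKM, and Kcnk9, Kcnh6 and Kcnh1 have groups separated by several fold.

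The makeup of the channel transcripts differed between groups by family. Two-pore subunits summed to 104.9 ± 9.51 FPKM in DMSO, 67.3 ± 6.75 in FoxOi, 54.8 ± 8.75 in Loperamide and 31.3 ± 4.97 in FoxOi_Loperamide (SD, n = 3). Their sum was above that of any other family in each DMSO library. Kcnh subunits summed to 43.6 ± 1.79, 29.8 ± 2.94, 53.6 ± 3.20 and 16.9 ± 1.16 FPKM in the same order. Auxiliary subunits stood at 59.1 ± 2.98, 61.5 ± 3.57, 86.5 ± 4.39 and 51.3 ± 4.37 FPKM, highest in Loperamide. Voltage-gated pores ranged from 32.0 ± 2.32 FPKM in FoxOi_Loperamide to 40.4 ± 3.98 in Loperamide, and their groups overlapped in part. Calcium- or sodium-activated subunits ranged from 11.01 ± 0.840 FPKM in FoxOi to 13.04 ± 0.534 in Loperamide. Group means were 2.94 FPKM or less for the inward rectifiers and 2.28 or less for the Kv7 subunits, both highest in FoxOi. Over all 96 genes the sum was 258 ± 11.2 FPKM in DMSO, 208 ± 5.83 in FoxOi, 251 ± 6.56 in Loperamide and 146 ± 7.29 in FoxOi_Loperamide. These sums were not tested. A sum can rest on few genes: most of the two-pore sum in DMSO was Kcnk16, Kcnk9 and Kcnk1, at 58.6, 23.2 and 21.9 FPKM. With FoxOi, Kcnk16 and Kcnk9 were called lower and Kcnk10 higher, and Kcnk1 and Kcnk6 were not called.

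**Figure D2:**
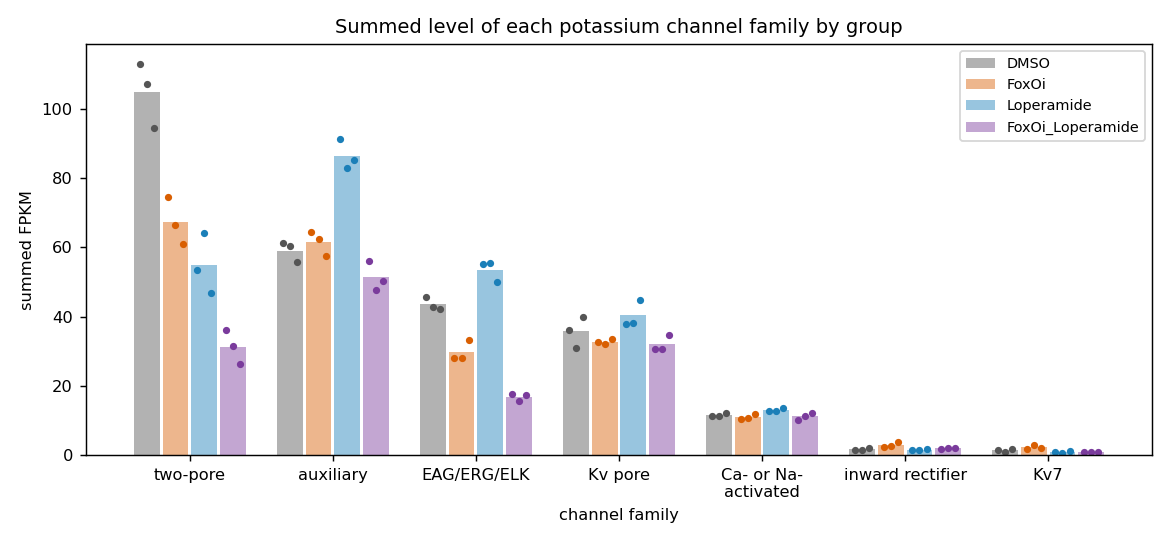
Summed FPKM of each channel family in the 4 groups, with bars at the mean of 3 libraries and 1 point per library. The sum of the two-pore subunits, most of it Kcnk16, Kcnk9 and Kcnk1, is lower in all 3 treated groups than in DMSO, from 104.9 to between 31.3 and 67.3 FPKM.

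The inhibitor alone was compared with DMSO, and 26 of the 48 tested channel genes passed the test, 12 higher and 14 lower. Of all 16808 genes tested, 40.9% passed, 20.7% higher and 20.3% lower. Among the rises were those of the inward rectifiers Kcnj3 and Kcnj4 and the silent subunit Kcng3, each from a low level. Among the falls were those of the more abundant Kcnh6, Kcnk9, Kcnd1 and Kcnma1. The median log2 fold change of the tested channel genes was -0.12, against 0.01 over all genes. Groups did not overlap for 28 of the 48, against 48.4% of all genes.

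Loperamide alone against DMSO gave 20 called channel genes, 10 higher and 10 lower, with 31.9% of all genes called (16.1% higher and 15.8% lower). Kcnc2, Kcnip3 and Kcnt2 were among those that rose, and Kcnk1, Kcnk9, Kcnk16 and Kcnh1 among those that fell. All 5 tested two-pore genes fell. The median was 0.27, against 0.02 over all genes. With the replicate number as a block, 17 channel genes were called higher in place of 10, and 25.8% of all genes. Groups did not overlap for 24 of the 48, against 43.1% of all genes.

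Both compounds against DMSO changed 33 of the 48, of which 9 were higher and 24 lower. The shares of all genes were 45.5% called, 22.3% higher and 23.2% lower. Kcnk9, Kcnk16, Kcnh6, Kcnh1 and Kcnq3 were among those that fell. Kcnj3, Kcnj4, Kcng3, Kcnt2, Kcnab1, Kcnip3 and Kcnn2 were among those that rose. The median was -0.72, against 0.01 over all genes. Groups did not overlap for 35, against 52.1% of all genes.

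The combination was also set against each compound alone. Against FoxOi, 22 channel genes were called, 5 higher and 17 lower, where 26.6% of all genes were called (11.5% higher and 15.1% lower). With the block, 9 were called higher in place of 5, and 21.6% of all genes. Against Loperamide, 29 were called, 6 higher and 23 lower, where 38.9% of all genes were called (18.4% higher and 20.5% lower). The median was -0.44 against FoxOi and -0.68 against Loperamide, where all genes had 0.00 and -0.01. Non-overlapping groups were found for 29 and 33 of the 48, against 40.8% and 50.3% of all genes. The 3 comparisons with DMSO share the DMSO libraries. Of the 48 genes, 10 were called in all 3 of them, 19 in 2, 11 in 1 and 8 in 0. Over all genes these shares were 13.3%, 26.7%, 25.2% and 34.9%.

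Some of these calls were lost when a library was left out. The smaller group also weakens the test, so such a loss does not show that the call rested on that library. Of the called channel genes, those that stayed called when each library was left out in turn numbered 10 higher and 10 lower for FoxOi against DMSO (13.7% and 15% of all genes), and 6 and 5 for Loperamide against DMSO (9.44% and 10.2%). For FoxOi_Loperamide they numbered 6 and 19 against DMSO (15.4% and 17.2%), 2 and 11 against FoxOi (6.29% and 9.79%), and 4 and 19 against Loperamide (12.1% and 14.3%). A gene that the filter on low counts removed from such a fit was not counted as lost there. The libraries are named where a gene is described.

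**Figure D3:**
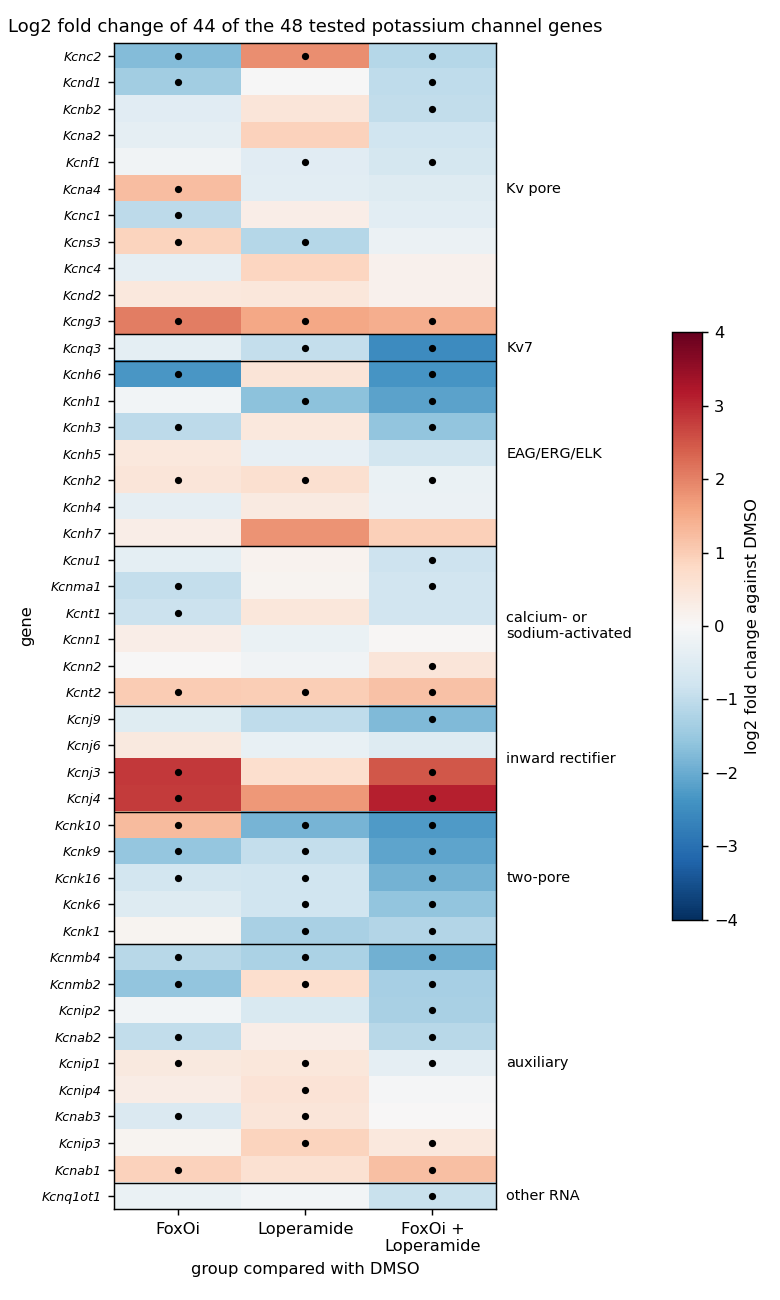
Fitted log2 fold change of 44 of the 48 tested genes (rows, by family) in the 3 comparisons with DMSO (columns), with a dot where the gene was called at an adjusted p under 0.05. The 5 two-pore genes are blue with a dot in both columns that hold loperamide, while Kcnj3 and Kcnj4 are the darkest red of the genes drawn in the FoxOi column.

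Among two-pore subunits, Kcnk16 (ENSMUSG00000023387, chromosome 14, 20261376 to 20269199, minus strand) stood at 165, 143 and 112 CPM in the DMSO libraries. It had 99.2, 78.3 and 74.2 CPM in FoxOi, 78.2, 99.4 and 62.3 in Loperamide, and 45.1, 40.3 and 27.6 in FoxOi_Loperamide. All 9 treated libraries lay below all 3 DMSO libraries. Its log2 fold change was -0.74 ± 0.21 (SE) with FoxOi (adjusted p = 0.0125), -0.81 ± 0.21 with Loperamide (adjusted p = 0.0108) and -1.89 ± 0.22 with both (adjusted p = 1.58e-05). The combination was lower than either compound alone, by -1.15 ± 0.21 against FoxOi (adjusted p = 0.0015) and -1.09 ± 0.21 against Loperamide (adjusted p = 0.00157).

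The acid-sensitive leak subunit Kcnk9 (ENSMUSG00000036760, chromosome 15, 72501089 to 72546340, minus strand) was also highest in DMSO and lowest with both compounds. It had 267, 289 and 305 CPM in DMSO, 94.0, 104 and 97.7 in FoxOi, 146, 143 and 153 in Loperamide, and 73.4, 55.8 and 68.3 in FoxOi_Loperamide. No 2 groups overlapped. The log2 fold change against DMSO was -1.54 ± 0.10 (adjusted p = 3.05e-08), -0.96 ± 0.10 (adjusted p = 5.14e-06) and -2.12 ± 0.10 (adjusted p = 1.29e-09) for FoxOi, Loperamide and both. The combination was -0.58 ± 0.10 below FoxOi (adjusted p = 0.000483) and -1.16 ± 0.10 below Loperamide (adjusted p = 7.28e-07).

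Kcnk1, a weak inward-rectifying two-pore subunit, fell only where loperamide was present among the comparisons run. It had 50.7, 48.8 and 47.9 CPM in DMSO, 55.5, 54.4 and 49.4 in FoxOi, 19.4, 22.7 and 17.6 in Loperamide and 23.8, 21.9 and 19.7 in FoxOi_Loperamide. The log2 fold change was -1.30 ± 0.11 with Loperamide (adjusted p = 7.97e-07) and -1.17 ± 0.11 with both (adjusted p = 5.09e-07), and 0.11 ± 0.10 with FoxOi (adjusted p = 0.405). The difference between the effect of loperamide with and without the inhibitor was 0.02 ± 0.15 (adjusted p = 0.964).

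Kcnk10 (TREK-2, a stretch- and lipid-sensitive subunit) was low, with 9, 7 and 11 counts in DMSO. It had 24, 23 and 32 counts in FoxOi, then 2, 1 and 3 in Loperamide and again 2, 1 and 3 in FoxOi_Loperamide. It rose with FoxOi by 1.25 ± 0.31 on the log2 scale (adjusted p = 0.00477). It fell by -1.86 ± 0.51 with Loperamide (adjusted p = 0.0118, and 0.0534 without Loperamide replicate 2) and by -2.26 ± 0.50 with both (adjusted p = 0.00182). Against FoxOi the combination was -3.52 ± 0.41 (adjusted p = 1.74e-05). Kcnk6 (TWIK-2), which the naming rule does not take and which is given to complete the family, had 3.34 ± 0.841 CPM in DMSO and 1.14 ± 0.327 with both (SD, n = 3), a log2 change of -1.57 ± 0.30 (adjusted p = 0.000589). Its fall with Loperamide (-0.80 ± 0.29, adjusted p = 0.0459) was lost without DMSO replicate 2 (0.20) or without Loperamide replicate 1 (0.136), 2 (0.0550) or 3 (0.113). Its fall against FoxOi (-1.06 ± 0.30, adjusted p = 0.0183) was lost without FoxOi replicate 2 (0.105) or FoxOi_Loperamide replicate 1 (0.0855). Kcnk3 (TASK-1) had 5 counts in all libraries together, 4 of them in FoxOi, and was not tested.

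**Figure D4:**
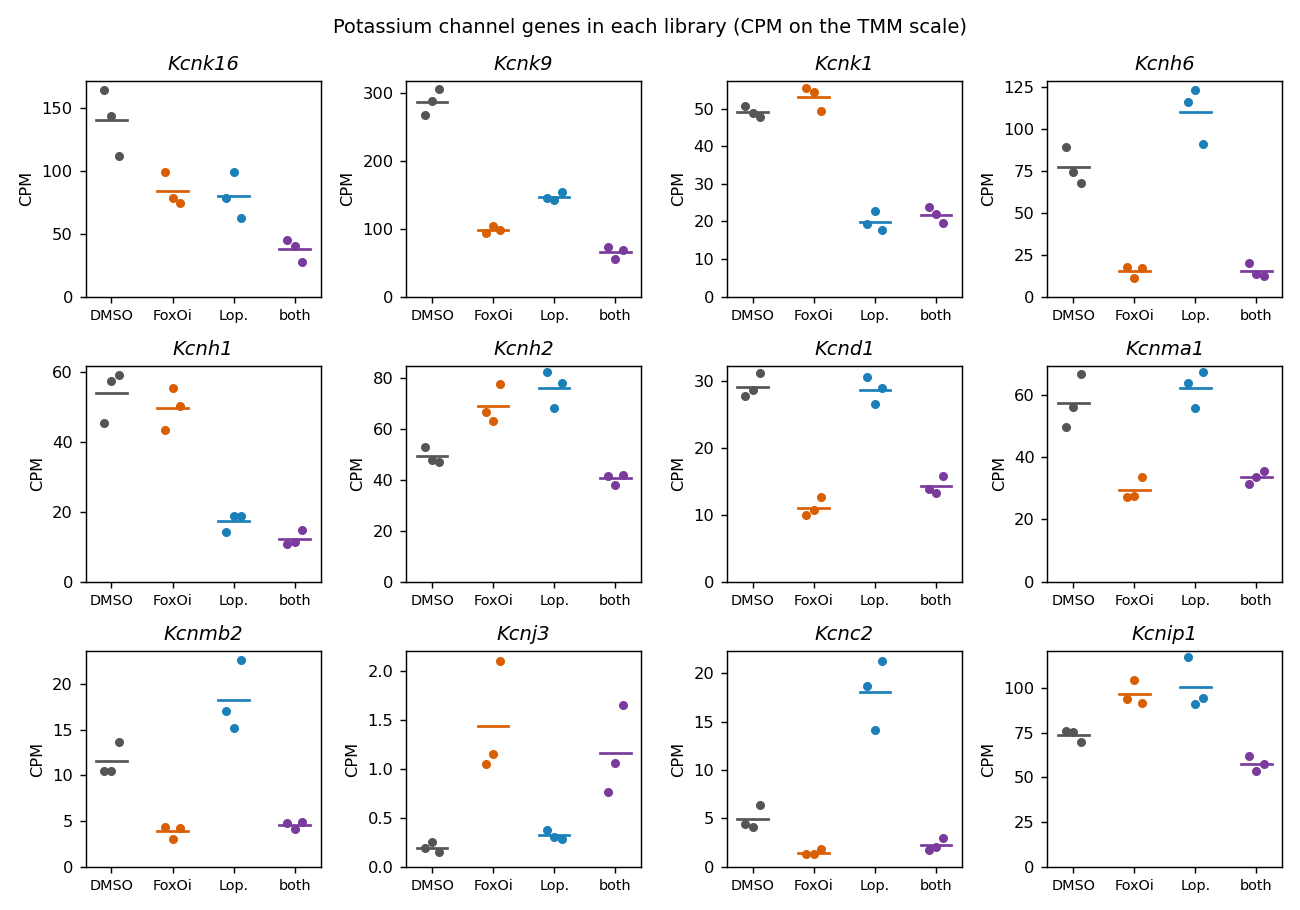
CPM of 12 channel genes in each library (points) with the group mean (line), on axes that start at 0. Kcnk16 and Kcnk9 are highest in DMSO and lowest with both compounds, Kcnk1 and Kcnh1 are low in both groups with loperamide, and Kcnh6 and Kcnma1 are low in both groups with the inhibitor.

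Kcnh6 (ENSMUSG00000001901, chromosome 11, 106008124 to 106034549, plus strand) encodes ERG2, of a family whose slow currents help repolarise excitable cells. It was at 89.2, 74.1 and 67.6 CPM in DMSO and at 17.6, 11.2 and 17.1 in FoxOi. In Loperamide it was at 116, 123 and 90.9, and in FoxOi_Loperamide at 19.9, 13.3 and 12.1. The 6 libraries with the inhibitor lay far below the 6 without it. The log2 fold change was -2.33 ± 0.21 with FoxOi (adjusted p = 2.16e-06) and -2.35 ± 0.21 with both (adjusted p = 1.47e-06). The combination was -2.86 ± 0.21 against Loperamide (adjusted p = 6.35e-07) and -0.02 ± 0.21 against FoxOi (adjusted p = 0.964). With Loperamide alone it was 0.51 ± 0.19, which missed the threshold (adjusted p = 0.0616). That value passed with the replicate block (0.00598), with DESeq2 (0.0413), without the filter on low counts (0.000157), with 2 groups in the fit (0.0194) and without Loperamide replicate 3 (0.0400).

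Kcnh2, which encodes ERG1, moved differently from its close relative Kcnh6. It stood at 52.9, 47.5 and 47.0 CPM in DMSO, 66.6, 62.9 and 77.6 in FoxOi, 82.3, 68.1 and 78.0 in Loperamide, and 41.5, 37.9 and 42.0 in FoxOi_Loperamide. Each compound alone was above DMSO and the combination below it. The log2 fold change was 0.49 ± 0.10 with FoxOi (adjusted p = 0.0013), 0.63 ± 0.10 with Loperamide (adjusted p = 0.000287) and -0.28 ± 0.10 with both (adjusted p = 0.0369). The last call did not hold when DMSO replicate 1 (0.102) or 2 (0.0594) was left out, nor when any 1 of the FoxOi_Loperamide libraries was (0.0611, 0.134 and 0.0557 for replicates 1, 2 and 3), nor without the filter on low counts (0.0792) or with 2 groups in the fit (0.0521). The falls from either compound alone to the combination, -0.77 ± 0.10 (adjusted p = 5.09e-05) and -0.91 ± 0.10 (adjusted p = 8.43e-06), stayed called in every alternative run.

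Kcnh1 (EAG1) was low in both groups with loperamide. Its CPM were 45.3, 57.4 and 59.2 in DMSO, 43.3, 55.4 and 50.3 in FoxOi, 14.3, 18.7 and 18.9 in Loperamide, and 10.8, 11.3 and 14.8 in FoxOi_Loperamide. Against DMSO the log2 fold change was -1.64 ± 0.15 with Loperamide (adjusted p = 2.31e-06) and -2.14 ± 0.16 with both (adjusted p = 5.99e-08), and the combination was -2.02 ± 0.15 against FoxOi (adjusted p = 2.54e-07). With FoxOi alone it was -0.12 ± 0.14 (adjusted p = 0.537). Kcnh1 overlaps Hhat on the opposite strand (721 counts), and reads of the pair cannot be told apart where the counting did not use strand. Kcnh3 (an ELK subunit) was at 0.720 ± 0.268 CPM in DMSO and 0.238 ± 0.0671 with both (SD, n = 3), a fall of -1.59 ± 0.43 (adjusted p = 0.00741). The combination was -2.01 ± 0.42 against Loperamide (adjusted p = 0.00151). Its fall with FoxOi, -1.05 ± 0.39 (adjusted p = 0.043), was lost without DMSO replicate 1 (0.208) or 2 (0.0550), without FoxOi replicate 1 (0.124) or 3 (0.115), with DESeq2 (0.105) and without the filter (0.101). Kcnh3 overlaps the opposite-strand gene Mcrs1, which had 10252 counts against 101 for Kcnh3.

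Among voltage-gated pores, Kcnb2 (Kv2.2, a delayed rectifier) was at 9.01, 11.6 and 17.0 CPM in DMSO, 7.49, 8.40 and 11.6 in FoxOi, 14.8, 16.1 and 21.2 in Loperamide and 5.60, 6.25 and 7.07 in FoxOi_Loperamide. It fell with both compounds, by -0.99 ± 0.23 against DMSO (adjusted p = 0.0033) and by -1.47 ± 0.23 against Loperamide (adjusted p = 0.000203). With FoxOi it was -0.44 ± 0.22 (adjusted p = 0.132) and with Loperamide 0.48 ± 0.22 (adjusted p = 0.113). Both passed with the block (0.00156 and 0.000543) and without the filter (0.0155 in each). The first also passed without DMSO replicate 1 (0.0188) or FoxOi replicate 3 (0.0468), and the second without DMSO replicate 3 (0.0117).

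Kcnc2, a fast Kv3 pore, had 4.41, 4.11 and 6.38 CPM in DMSO, 1.28, 1.32 and 1.79 in FoxOi, 18.7, 14.1 and 21.3 in Loperamide and 1.74, 2.06 and 2.93 in FoxOi_Loperamide. All 6 libraries with the inhibitor lay below DMSO, and the 3 with loperamide alone lay above it. On the log2 scale the change was -1.74 ± 0.26 with FoxOi (adjusted p = 8.65e-05), 1.87 ± 0.21 with Loperamide (adjusted p = 1.34e-05) and -1.14 ± 0.25 with both (adjusted p = 0.00162). The combination was -3.01 ± 0.23 against Loperamide (adjusted p = 2.45e-07).

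Kcnd1 (Kv4.1, an A-type pore) stood at 27.7, 28.6 and 31.2 CPM in DMSO, 9.93, 10.7 and 12.7 in FoxOi, 30.7, 26.6 and 29.0 in Loperamide and 13.8, 13.3 and 15.8 in FoxOi_Loperamide. It was low wherever the inhibitor was present. The fitted log2 change was -1.39 ± 0.11 with FoxOi (adjusted p = 2.89e-07), -1.03 ± 0.11 with both (adjusted p = 3.87e-06) and -0.02 ± 0.11 with Loperamide (adjusted p = 0.90). The combination was -1.0 ± 0.11 against Loperamide (adjusted p = 8.95e-06). Its rise from FoxOi to the combination, 0.37 ± 0.12 (adjusted p = 0.031), was lost without FoxOi replicate 1 (0.0799) or 2 (0.102), without FoxOi_Loperamide replicate 1 (0.0502) or 3 (0.125) and with 2 groups in the fit (0.0572).

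The silent or modifier pores form channels only together with other Kv subunits. Kcns3 had 4.99 ± 0.887 CPM in DMSO, 9.17 ± 1.17 in FoxOi, 2.28 ± 0.608 in Loperamide and 4.25 ± 0.609 with both (SD, n = 3). It rose with FoxOi by 0.88 ± 0.19 (adjusted p = 0.00171) and fell with Loperamide by -1.14 ± 0.23 (adjusted p = 0.00142). The combination was -1.10 ± 0.19 against FoxOi (adjusted p = 0.000497) and 0.91 ± 0.23 against Loperamide (adjusted p = 0.0054). Kcns3 overlaps Gm48088 on the opposite strand, which had 3437 counts against 1030. Kcng3 was near the detection limit, with 2, 4 and 2 counts in DMSO, 10, 18 and 13 in FoxOi, 4, 8 and 8 in Loperamide, and 9, 7 and 9 in FoxOi_Loperamide. Its rise with FoxOi was 2.03 ± 0.43 (adjusted p = 0.00151). Its rises with Loperamide (1.54 ± 0.48, adjusted p = 0.0251) and with both (1.44 ± 0.47, adjusted p = 0.0206) were lost without the filter (0.079 and 0.0639), with DESeq2 (0.0762 and 0.0705), without DMSO replicate 1 (0.0939 and 0.0813) and without DMSO replicate 3 (0.0677 and 0.0615). The first was also lost without Loperamide replicate 2 (0.0774) or 3 (0.0764), and the second without FoxOi_Loperamide replicate 3 (0.0563).

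Of the Kv1 pores, Kcna4 had 12, 11 and 9 counts in DMSO and 23, 42 and 27 in FoxOi. It rose by 1.24 ± 0.34 (adjusted p = 0.00956, and 0.0563 without FoxOi replicate 2). In the combination it had 9, 7 and 9 counts and was -1.75 ± 0.36 against FoxOi (adjusted p = 0.00207). Kcna2 was at 7.70 ± 2.18 CPM in Loperamide and 2.34 ± 0.836 in the combination (SD, n = 3), a fall of -1.73 ± 0.35 (adjusted p = 0.00162). Against DMSO, at 4.15 ± 1.71 CPM, Kcna2 was 0.92 ± 0.33 with Loperamide (adjusted p = 0.0513, and 0.000406 with the block) and -0.81 ± 0.37 with both (adjusted p = 0.0894, and 0.00466 with the block).

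Kv7 channels pass slow currents that open near the resting voltage. Kcnq3 was highest of the Kv7 genes per length in DMSO, at 1.23 ± 0.516 FPKM (SD, n = 3). It had 14.4, 8.65 and 20.8 CPM in DMSO, 7.78, 11.9 and 13.7 in FoxOi, 6.90, 5.55 and 9.99 in Loperamide and 2.29, 2.13 and 3.23 in FoxOi_Loperamide. The combination was lower than each other group, by -2.51 ± 0.35 against DMSO (adjusted p = 9.03e-05), -2.13 ± 0.35 against FoxOi (adjusted p = 0.00068) and -1.56 ± 0.37 against Loperamide (adjusted p = 0.00533). The fall with Loperamide alone, -0.95 ± 0.32 (adjusted p = 0.0382), was lost without DMSO replicate 1 (0.0692) or 3 (0.116), without Loperamide replicate 1 (0.105) or 2 (0.129) and with 2 groups in the fit (0.0564). Kcnq1 had 3 counts in all libraries, and the tested antisense RNA Kcnq1ot1, which lies over it on the opposite strand, had 1104.

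Calcium- and sodium-activated channels tie potassium current to ion entry. Kcnma1, the pore of the BK channel (ENSMUSG00000063142, chromosome 14, 23289431 to 24014491, minus strand), had 49.6, 55.9 and 66.8 CPM in DMSO and 27.3, 27.6 and 33.5 in FoxOi. It had 63.7, 55.9 and 67.1 CPM in Loperamide and 31.2, 33.6 and 35.4 in FoxOi_Loperamide. The groups with the inhibitor did not overlap those without it. Against DMSO the log2 fold change was -0.96 ± 0.12 with FoxOi (adjusted p = 1.85e-05), -0.78 ± 0.12 with both (adjusted p = 0.000101) and 0.12 ± 0.12 with Loperamide (adjusted p = 0.493). Kcnt2, a sodium-activated pore, rose in each treated group, from 7.90 ± 2.19 CPM in DMSO to 15.8 ± 3.26, 15.7 ± 3.04 and 17.6 ± 2.88 in FoxOi, Loperamide and both (SD, n = 3). Its log2 changes were 1.01 ± 0.21 (adjusted p = 0.00175), 1.00 ± 0.22 (adjusted p = 0.00333) and 1.16 ± 0.21 (adjusted p = 0.000552).

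Of the small-conductance channels, Kcnn2 was at 3.95 ± 0.325 CPM in DMSO and 5.53 ± 1.02 with both compounds (SD, n = 3). It was 0.48 ± 0.17 above DMSO (adjusted p = 0.0296), 0.47 ± 0.16 above FoxOi (adjusted p = 0.0465) and 0.61 ± 0.17 above Loperamide (adjusted p = 0.0118). The first and second were also lost without the filter (0.0583 and 0.0714) and with 2 groups in the fit (0.0534 and 0.0648), and the second with DESeq2 (0.0605). Without FoxOi_Loperamide replicate 3, at 6.71 CPM against 4.95 and 4.94 in the others, these adjusted p-values were 0.152, 0.214 and 0.0614. The first was also lost without DMSO replicate 1 (0.0621) or 3 (0.0973), the second without FoxOi replicate 1 (0.058), 2 (0.140) or 3 (0.0898), and the third without Loperamide replicate 3 (0.0587). Kcnn2 overlaps Gm10540 on the opposite strand, which had 1349 counts against 815. Kcnn4, the intermediate-conductance channel, had 1 count in all.

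Inward rectifiers pass current more readily into the cell, and the Kcnj3, Kcnj6 and Kcnj9 products form channels opened by G proteins. Kcnj3 had 3, 4 and 2 counts in DMSO, 18, 21 and 41 in FoxOi, 4, 4 and 4 in Loperamide and 14, 17 and 27 in FoxOi_Loperamide. It rose by 2.82 ± 0.46 with FoxOi (adjusted p = 0.000206) and by 2.49 ± 0.49 with both (adjusted p = 0.000731), and the combination was 1.83 ± 0.46 above Loperamide (adjusted p = 0.00593). Kcnj4 had 2, 1 and 4 counts in DMSO, 13, 17 and 32 in FoxOi, 10, 4 and 6 in Loperamide and 20, 24 and 26 with both. Its rise was 2.79 ± 0.55 with FoxOi (adjusted p = 0.000938) and 3.10 ± 0.54 with both (adjusted p = 0.000285). With Loperamide it was 1.73 ± 0.67 (adjusted p = 0.0624), and it passed with the block (0.0301), with DESeq2 (0.0476), without the filter (0.0318), without DMSO replicate 3 (0.0355) and without Loperamide replicate 2 (0.0464). Its rise from Loperamide to both, 1.36 ± 0.44 (adjusted p = 0.0235), was lost without Loperamide replicate 2 (0.106) or 3 (0.0862) or FoxOi_Loperamide replicate 2 (0.0605) or 3 (0.0656).

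Kcnj6 (GIRK2) was the inward rectifier with the highest mean FPKM in each group, from 0.882 with both compounds to 1.63 in FoxOi. It had 8.48, 10.4 and 13.5 CPM in FoxOi and 4.41, 6.06 and 6.95 in FoxOi_Loperamide. The fall between these groups was -0.90 ± 0.27 (adjusted p = 0.0243), and it was lost without FoxOi replicate 2 (0.0554) or 3 (0.0982), or FoxOi_Loperamide replicate 1 (0.094) or 2 (0.0607). Against DMSO, at 8.34 ± 2.15 CPM (SD, n = 3), Kcnj6 was 0.38 ± 0.26 with FoxOi (adjusted p = 0.271, and 0.0100 with the block), -0.28 ± 0.28 with Loperamide (adjusted p = 0.484) and -0.52 ± 0.28 with both (adjusted p = 0.147, and 0.00172 with the block or 0.0162 without the filter).

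Auxiliary subunits included Kcnip1 (KChIP1), among the 5 highest channel genes per length in DMSO. It had 75.9, 75.4 and 70.0 CPM in DMSO, 94.0, 105 and 91.9 in FoxOi, 117, 90.9 and 94.3 in Loperamide and 61.8, 53.8 and 57.3 in FoxOi_Loperamide. Each compound alone was above DMSO and the combination below, as for Kcnh2. The log2 changes against DMSO were 0.39 ± 0.10 (adjusted p = 0.00635), 0.45 ± 0.10 (adjusted p = 0.00381) and -0.36 ± 0.10 (adjusted p = 0.0109, and 0.0532 without FoxOi_Loperamide replicate 2). The combination was -0.75 ± 0.10 against FoxOi (adjusted p = 7.19e-05) and -0.81 ± 0.10 against Loperamide (adjusted p = 2.71e-05). Kcnip3 (KChIP3, also known as DREAM or calsenilin) was at 57.5, 51.7 and 45.8 CPM in DMSO, 66.6, 51.3 and 50.9 in FoxOi, 97.8, 96.9 and 95.5 in Loperamide and 76.0, 63.3 and 66.4 with both. It rose with Loperamide by 0.90 ± 0.12 (adjusted p = 4.15e-05) and with both by 0.41 ± 0.12 (adjusted p = 0.0102, and 0.055 without DMSO replicate 3). Kcnip4 rose with Loperamide from 7.68 ± 1.28 to 11.3 ± 1.24 CPM (SD, n = 3). That change, 0.56 ± 0.19 (adjusted p = 0.0334), was lost without DMSO replicate 1 (0.0516) or 2 (0.160) or Loperamide replicate 1 (0.116) or 3 (0.0664). Kcnip4 (1664 counts) overlaps the opposite-strand gene 5730480H06Rik (1538 counts).

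The beta subunits of BK channels adjust their calcium response. Kcnmb2, whose product inactivates the channel, had 10.5, 10.5 and 13.6 CPM in DMSO, 4.36, 3.02 and 4.2 in FoxOi, 17.1, 15.1 and 22.6 in Loperamide and 4.73, 4.13 and 4.88 in FoxOi_Loperamide. Like Kcnma1, the pore it binds, it was low in both groups with the inhibitor. It fell by -1.58 ± 0.19 with FoxOi (adjusted p = 1.1e-05) and -1.33 ± 0.19 with both (adjusted p = 3.96e-05), and the combination was -1.99 ± 0.18 against Loperamide (adjusted p = 1.37e-06). It rose with Loperamide by 0.67 ± 0.17 (adjusted p = 0.008, and 0.0555 without Loperamide replicate 3). Kcnmb4, the form found mainly in brain, had 39, 42 and 32 counts in DMSO, 24, 23 and 16 in FoxOi, 15, 18 and 6 in Loperamide and 13, 7 and 13 in FoxOi_Loperamide. It was -1.93 ± 0.35 with both compounds (adjusted p = 0.000391). Its falls with FoxOi (-1.11 ± 0.31, adjusted p = 0.0107) and with Loperamide (-1.25 ± 0.34, adjusted p = 0.0116) were lost without FoxOi replicate 3 (0.0522) and without Loperamide replicate 3 (0.0506).

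Cytoplasmic beta subunits of Kv1 channels are related to aldo-keto reductases. Kcnab1 rose with both compounds, from 10, 21 and 7 counts to 31, 37 and 30, by 1.21 ± 0.30 (adjusted p = 0.00397). Its rise with FoxOi, 0.92 ± 0.30 (adjusted p = 0.0243), was lost without DMSO replicate 1 (0.108) or 3 (0.109), FoxOi replicate 3 (0.0665) and with 2 groups in the fit (0.0549). Kcnab3 fell with FoxOi from 4.86 ± 0.308 to 3.25 ± 0.360 CPM (SD, n = 3), by -0.58 ± 0.15 (adjusted p = 0.00677), and from FoxOi to the combination it rose by 0.59 ± 0.15 (adjusted p = 0.00974). Its rise with Loperamide, 0.49 ± 0.15 (adjusted p = 0.0203), was lost without DMSO replicate 1 (0.0675) or 3 (0.0756), Loperamide replicate 2 (0.0746) or 3 (0.0624) and without the filter (0.0789).

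The design crosses the compounds, so the effect of loperamide could be compared with and without the inhibitor. By that test 6 of the 48 channel genes differed, all of them lower with the inhibitor, where 9.48% of all genes passed (3.66% higher and 5.82% lower). At an unadjusted p under 0.05 the number was 18, where 23.4% of all genes passed. With the block 2 were called higher and 17 lower (11.4% and 14.4% of all genes), and with no filter on low counts 0 and 13 (3.56% of all genes lower). Kcnh2 differed by -1.40 ± 0.14 (SE) on the log2 scale (adjusted p = 3.86e-05), and Kcnip1 by -1.20 ± 0.14 (adjusted p = 0.000126). For both genes the level was higher with loperamide than without it in the absence of the inhibitor, and lower in its presence. These 2 calls held in each fit that left out 1 library and in every other alternative run. The other 4 differences, of Kcnip3 (-0.62 ± 0.16, adjusted p = 0.0267), Kcng3 (-2.13 ± 0.59, adjusted p = 0.0339), Kcnc2 (-1.27 ± 0.36, adjusted p = 0.0361) and Kcnip4 (-0.91 ± 0.26, adjusted p = 0.0396), were each lost on leaving out single libraries. Kcnip3 lost its call without DMSO replicate 2 or 3, FoxOi replicate 1, any 1 Loperamide library, or FoxOi_Loperamide replicate 2 or 3 (adjusted p 0.0527 to 0.0916). Kcng3 lost it without DMSO replicate 1 or 3, Loperamide replicate 2 or 3, or FoxOi_Loperamide replicate 1 or 2 (0.0646 to 0.096), with DESeq2 (0.0955) and without the filter (0.0882). Kcnc2 lost it without DMSO replicate 1 or 2, FoxOi replicate 2 or 3, Loperamide replicate 1 or 3, or FoxOi_Loperamide replicate 1 or 2 (0.0592 to 0.130). Kcnip4 lost it without DMSO replicate 1 or 2, FoxOi replicate 1 or 3, any 1 Loperamide library, or FoxOi_Loperamide replicate 2 or 3 (0.0508 to 0.131).

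**Figure D5:**
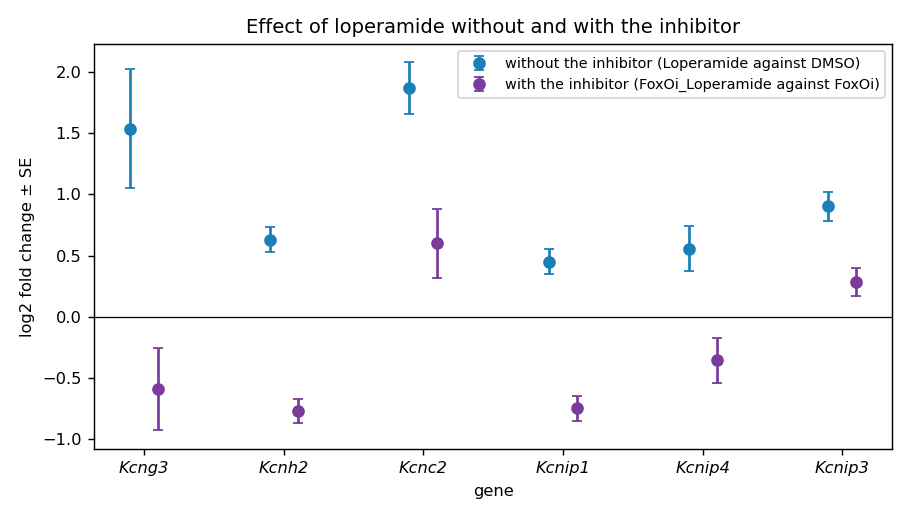
Log2 fold change ± SE for loperamide without the inhibitor (Loperamide against DMSO) and with it (FoxOi_Loperamide against FoxOi) in the 6 channel genes whose 2 values differed by the test. Kcnh2 and Kcnip1 lie above 0 without the inhibitor and below 0 with it.

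Channel genes work beside other genes of membrane excitability, so 44 of these were read as a list. Of 35 tested, 8 rose and 14 fell with FoxOi (20.7% and 20.3% of all genes). With Loperamide 17 rose and 2 fell (16.1% and 15.8%), and with both 11 rose and 13 fell (22.3% and 23.2%). From FoxOi to the combination 10 rose and 8 fell (11.5% and 15.1%). From Loperamide to the combination 8 rose and 20 fell (18.4% and 20.5%). The median log2 changes in these 5 comparisons were -0.19, 0.36, -0.15, 0.09 and -0.58, and the medians over all genes lay between -0.01 and 0.02. The shares in brackets are those of all genes tested in each comparison. The cation channel Trpm5 had 79.0 ± 8.79 CPM in DMSO, 27.0 ± 4.86 in FoxOi, 69.5 ± 2.66 in Loperamide and 15.3 ± 1.98 with both (SD, n = 3). It fell by -1.55 ± 0.13 with FoxOi (adjusted p = 3.13e-07) and -2.37 ± 0.13 with both (adjusted p = 5.18e-09). The related Trpm2 fell with FoxOi by -2.26 ± 0.22 (adjusted p = 1.46e-06), and Slc12a5, a potassium-chloride cotransporter, by -1.06 ± 0.09 (adjusted p = 7.08e-07).

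With Loperamide, the pacemaker channel gene Hcn4 rose from 49.0 ± 0.729 to 95.5 ± 3.91 CPM (SD, n = 3), by 0.96 ± 0.09 (adjusted p = 1.45e-06). Hcn3 rose by 0.70 ± 0.09 (adjusted p = 3.88e-05), the L-type calcium channel pore Cacna1d by 0.70 ± 0.09 (adjusted p = 2.67e-05) and the calcium channel gamma subunit Cacng4 by 0.89 ± 0.10 (adjusted p = 1.23e-05). With both compounds, Hcn3 rose by 0.96 ± 0.09 (adjusted p = 6.7e-07) and the T-type calcium channel pore Cacna1h fell by -2.77 ± 0.19 (adjusted p = 3.7e-08). Dpp6 and Dpp10 encode partners that bind Kv4 pores together with the Kcnip products, and both changed from FoxOi to the combination. Dpp6 fell by -1.68 ± 0.11 (adjusted p = 6.72e-08), from 158 ± 5.04 to 49.3 ± 6.20 CPM (SD, n = 3), and Dpp10 rose by 2.44 ± 0.20 (adjusted p = 3.95e-07), from 1.94 ± 0.357 to 10.6 ± 1.73 CPM. In the same comparison Atp1b1, a sodium pump beta subunit, fell by -0.76 ± 0.10 (adjusted p = 5.39e-05). By the test of loperamide with and without the inhibitor, 1 of the 35 tested genes of the list was higher and 10 were lower. Of all genes, 3.66% were higher and 5.82% lower by this test. They included Dpp6 (-1.44 ± 0.15, adjusted p = 5.51e-05), Dpp10 (1.70 ± 0.28, adjusted p = 0.00137) and Cacng4 (-0.81 ± 0.14, adjusted p = 0.00196).

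Promoter windows of the channel genes were read from RefSeq (GRCm38.p6) as 250 bases before to 50 after each annotated start, with 96 windows for 71 of the 96 genes. The core letters bound by FoxO factors, TGTTTAC on either strand, occurred in 0 of the 96 windows and in 3.65% of 32851 windows of all genes. The E-box CAGATG was in 20 of the 96 windows (18 genes), against 17.2% of all, and the GC box GGGCGG in 46 (44 genes), against 35.7% of all. A match is a description of letters in the window and not a site, and the absence of a match says nothing about a factor. Kcnk16, the most abundant channel gene per length in DMSO, and Kcnh6, the most abundant Kcnh gene there, are shown with the E-box of Kcnk16 and the GC boxes of Kcnh6 in capitals. Both run 5′ to 3′ on the strand of the gene, for Kcnk16 on the minus strand of chr14:20269220-20269519 and for Kcnh6 on the plus strand of chr11:106007898-106008197.
Kcnk16 promoter: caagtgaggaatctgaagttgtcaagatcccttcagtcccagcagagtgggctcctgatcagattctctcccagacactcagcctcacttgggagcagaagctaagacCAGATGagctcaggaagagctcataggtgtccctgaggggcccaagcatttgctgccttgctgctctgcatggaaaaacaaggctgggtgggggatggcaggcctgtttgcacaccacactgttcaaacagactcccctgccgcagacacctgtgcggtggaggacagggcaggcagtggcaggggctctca
Kcnh6 promoter: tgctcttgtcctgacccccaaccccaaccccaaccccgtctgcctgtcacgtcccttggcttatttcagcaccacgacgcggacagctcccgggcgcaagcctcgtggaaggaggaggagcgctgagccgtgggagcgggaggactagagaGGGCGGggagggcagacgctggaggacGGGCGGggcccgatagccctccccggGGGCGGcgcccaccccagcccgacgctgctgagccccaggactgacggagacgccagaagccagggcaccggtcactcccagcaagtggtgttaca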

How the data were processed

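RNA of 12 Min6 libraries was read as single 50-base reads from a stranded mRNA kit, per the labels' protocols. The authors deposited raw counts per gene and FPKM, which are those counts scaled to gene length and library. STAR 2.7.5a, Picard 2.19.2, DESeq2 and GRCm38/mm10 are named in the submitters' processing notes. For the counting tool and its strand setting, the entry is "not given in the sources used here", and 42 of the 96 genes overlap a gene on the opposite strand. Such overlaps are named above for only some genes. Others are those of Kcnab1 (271 counts) with A330015K06Rik (34) and A730090N16Rik (59), Kcnmb4 (248) with Kcnmb4os2 (33), and Kcnk10 (118) with Gm40893 (14).

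Counts were fitted with edgeR 4.0.16 (quasi-likelihood, TMM, R 4.3.3) over all 12 libraries with group as the only term, after filterByExpr (minimum count 10, minimum total 15) left 16808 genes. Adjusted p-values are Benjamini-Hochberg over these genes, with calls at 0.05, and every adjusted p given is from this fit unless an alternative is named. SE is the fold change over the square root of F. Alternatives were RLE size factors, no filter, DESeq2 1.42.0, 2 groups in the fit, the replicate number as a block, and each library left out. Low counts limit precision to that of counting.

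Same-numbered libraries carry one code in all groups, whose meaning is not stated. Their deviations from group means correlated at 0.0915 to 0.507 (18 pairs), against -0.469 to 0.105 for different numbers (36 pairs). The lowest same-numbered pair was Loperamide and FoxOi_Loperamide replicate 2 at 0.0915, while replicates 1 and 3 of those groups correlated at 0.328 and 0.341. The fit behind the calls has group as its only term, so its p-values do not use any pairing by number. The replicate number enters only as the block, which is an alternative. Over all genes the block gave 9428 calls for FoxOi against DMSO (6881 without it), 8179 for Loperamide (5370) and 9915 for both (7642).

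Genes named were 11 channel genes set by name, the 5 highest in DMSO, and per comparison the 6 largest called rises and falls without overlap. To these were added up to 6 called differences of effect and, of the excitability list, the 4 smallest adjusted p per comparison. Some items that this rule takes are not reported here, but they count in every number over the genes. The members and lists were chosen with earlier results of these data known.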

Additional observations from a re-analysis of the deposited data

Results flagged for a closer look

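In 6 of the 48 tested channel genes the log2 effect of loperamide differed by test between cells with and without the inhibitor. Of all genes, 9.48% differed by this test. The value with the inhibitor minus that without it was -1.40 for Kcnh2, -1.20 for Kcnip1, -0.62 for Kcnip3, -2.13 for Kcng3, -1.27 for Kcnc2 and -0.91 for Kcnip4. Kcnh2 and Kcnip1 kept the call in every alternative run. Kcnip3, Kcng3, Kcnc2 and Kcnip4 each lost it when single libraries were left out.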

How the results depend on the processing

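With the replicate number as a block, 17 channel genes were called higher with Loperamide (10 without it) and 9 higher from FoxOi to the combination (5 without it). In the test of loperamide with and without the inhibitor, 0 were called higher and 6 lower. The block gave 2 and 17 (11.4% and 14.4% of all genes), and no filter gave 13 lower (3.56%). The cause was not tested. Counting genes at 1 FPKM or more in place of any count gave 26 in place of 85. Leaving out 1 library at a time gave 10 to 12 higher and 12 to 14 lower for FoxOi, 7 to 12 and 6 to 9 for Loperamide, and 7 to 9 and 20 to 24 for both, each against DMSO. It gave 2 to 4 and 12 to 15 for the combination against FoxOi, 4 to 6 and 20 to 24 against Loperamide, and 0 to 1 and 2 to 8 for the difference of effects. Of all genes in these fits (16974 to 17142), 2618 to 3099 were higher and 2915 to 3633 lower for FoxOi. For Loperamide they were 1906 to 2520 and 2055 to 2836, and for both 3073 to 3440 and 3364 to 3860. For the combination they were 1270 to 1859 and 2007 to 2244 against FoxOi, and 2531 to 2724 and 2875 to 3047 against Loperamide. For the difference of effects they were 465 to 957 and 597 to 937. Channel genes with any count numbered 84 to 85, and those at 1 FPKM 26 to 27. The count lower with Loperamide was 6 without Loperamide replicate 2. The count higher from FoxOi was 2 without FoxOi replicate 2 or FoxOi_Loperamide replicate 3. The count of lower differences of effect was 3 without DMSO replicate 1 or 2, FoxOi replicate 3 or Loperamide replicate 1 or 2, and 2 without Loperamide replicate 3 or FoxOi_Loperamide replicate 2. No direction reversed.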

Other observations

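Some channel genes too low for the test had counts mainly in certain groups. Kcnj12, a strong inward rectifier, had 6, 8 and 9 counts in FoxOi, against 1, 0 and 0 in DMSO, 2, 0 and 3 in Loperamide and 0, 1 and 0 with both compounds. Kcnj14 had 8, 10 and 6 counts in FoxOi and 11, 8 and 4 with both, against 1, 3 and 2 in DMSO and 2, 2 and 0 in Loperamide. Kcne2, an auxiliary subunit, had 2, 2 and 5 counts in DMSO and 0 in all 3 libraries with both compounds, at least 3.49-fold lower against a floor of 3 counts over the group. These values were chosen after they were seen and were not tested.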
